A study of Homo sapiens with 13 samples.

Results

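Replacement histones are the histone proteins that cells make outside S phase and exchange into chromatin that is already assembled. Most histone mRNA comes from the clustered replication histone genes and ends in a stem-loop without a poly(A) tail. Replacement histone genes mostly lie outside the large clusters, and their mRNAs are as a rule cleaved and polyadenylated like other mRNAs. The genes described here were all rows of the 9 deposited libraries whose gene name was one of 9 listed symbols: H2AFX, H2AFZ, H2AFV, H2AFJ, H2AFY and H2AFY2, which encode forms of H2A, H3F3A and H3F3B, which encode the same H3.3 protein, and H1FX, which encodes a linker histone. All 9 genes had reads, out of 14575 genes in the libraries, and they accounted for 306 of 211765 3’ ends. The 9 symbols are older names, and each matched 1 current gene in the RefSeq table: H2AX, H2AZ1, H2AZ2, H2AJ, MACROH2A1, MACROH2A2, H3-3A, H3-3B and H1-10, in the same order.

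The libraries were made by 3’ READS, a method that reads polyadenylated RNA from its 3’ end, from HEK293 Flp-in TREX cells, a line of human embryonic kidney origin with a doxycycline-inducible expression system. In 5 wild-type libraries the cells expressed an α-amanitin resistant wild-type Rpb1, the largest subunit of RNA polymerase II (Pol II). In 4 R749H libraries they expressed the α-amanitin resistant Rpb1 with the R749H substitution, which slows elongation. The sample titles name a tag on both forms. Both forms came from integrated plasmids and were induced with doxycycline at 2 μg/ml, for 24 hr by the labels and for a shorter time by the methods of the study. All cells were then treated with α-amanitin at 2.5 μg/ml for 42 hr, which inactivates the Pol II that the cells make themselves and which both groups therefore share. The study calls the libraries of a group biological replicates, and the labels do not describe the cultures behind them, so the p-values measure the spread between these libraries.

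Libraries held 2479851 to 10135014 reads within 5 kb of a stop codon. R749H replicate 3 stood apart: 6.60% of its 3’ ends had a single read, compared with 30.05% to 36.2% in the other 8 libraries, and wild-type replicate 1 was the shallowest library. Of the markers of HEK293 cells, VIM, INA and KRT18 were present in every library, PAX2 had 85 reads in all and NEFM only 2, and ALB, HBB, PTPRC and CD3E, which mark other tissues, had 3, 0, 0 and 3 reads. Levels are given as normalised reads, which the authors scaled to 7000000 poly(A) reads in each library. Because 3’ READS counts 1 end per mRNA, levels of different genes are set side by side without dividing by length. Other differences between genes in how well their ends are captured or mapped were not tested, so ranks of genes are ranks of reads.

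The 3’ ends of the genes in largest supply are shown first, because the position of the end and the hexamer in front of it are what poly(A) RNA sequencing sees of these mRNAs. Each line holds the last 30 nt before the cleavage site in the RNA sense, read from GRCh37 (the hg19 build of the files), with the poly(A) signal in capitals, and the distance is that from the stop codon to the end.
H2AFX, 1086 nt, chr11:118964587-118964616, minus strand: ctaattttATTAAAggattgtttttttttt
H2AFZ, 371 nt, chr4:100869248-100869277, minus strand: ggtggataagttcAATAAAggtcatatccc
H2AFV, 271 nt, chr7:44873829-44873858, minus strand: tggaattGATAAAccattttttacaaaatt
H2AFJ, 164 nt, chr12:14927929-14927958, plus strand: ggcgggagccAATAAAgttggtgaaaatcg
H2AFY, 595 nt, chr5:134670071-134670100, minus strand: tgagttgatttAGTAAAatgttaaaccgtt
H3F3A, 539 nt, chr1:226259690-226259719, plus strand: tacATTAAActatacctgcttttggtcttt
H3F3B, 1134 nt, chr17:73773542-73773571, minus strand: gactaaatttacaAATAAActtgtttatcc
H1FX, 489 nt, chr3:129033615-129033644, minus strand: tttgggcacAATAAAgcgtttaaacctttc
These are the most used ends of 8 of the genes, and all 8 lie in annotated 3’ UTRs. The canonical hexamer AATAAA preceded the ends of H2AFZ, H2AFJ, H3F3B and H1FX, and ATTAAA, the commonest variant, those of H2AFX and H3F3A. H2AFV and H2AFY had single-base variants of the hexamer, GATAAA and AGTAAA. The hexamers searched in the 40 nt before an end, in the RNA sense only, were taken in a fixed order, first AATAAA and second ATTAAA. They were followed by AGTAAA in place 3, TATAAA in place 4, GATAAA in place 5, CATAAA in place 6, ACTAAA in place 7, AATATA in place 8, AATACA in place 9 and AATAGA in place 10. Among the most used ends of the 9494 genes tested for expression, 67.3% had AATAAA, 16.8% ATTAAA without it, 2.84% AGTAAA and 0.990% GATAAA as the first of these found, and 5.40% had none. H2AFY2 had 65 reads in all, and its most used end, 324 nt after the stop codon with 17 reads, had none of the 10 hexamers. The 30 nt shown for H3F3B occur once more elsewhere in the genome, as do the 30 nt before its end at 344 nt, and those of the other 7 genes do not recur. Among the most used ends of all tested genes, 2.73% had such a copy.

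By poly(A) reads, linker histone H1FX was the most abundant of the 9 mRNAs and H2AFY2 the least. In wild-type cells H1FX ranked 56 of the 14575 genes, H2AFX 194, H2AFZ 280 and H3F3B 961, followed by H2AFV at 3080, H2AFJ at 3369, H2AFY at 3411, H3F3A at 8354 and H2AFY2 at 9719. The ranges of the 5 wild-type libraries did not overlap at the steps from H1FX to H2AFX, from H2AFZ to H3F3B, from H3F3B to H2AFV and from H2AFY to H3F3A. H2AFX and H2AFZ overlapped, as did H2AFV, H2AFJ and H2AFY with each other, and H3F3A and H2AFY2. Apart from that of H2AFV with H2AFJ, these overlaps came from wild-type replicate 1 alone. In the other 4 wild-type libraries H2AFX, at 4129 to 4723 normalised reads, lay above H2AFZ. H2AFY, at 103 to 136, lay below H2AFV and H2AFJ, and H2AFY2, at 4.43 to 9.33, lay below H3F3A. The rank of H2AFY includes its 382 normalised reads in replicate 1. H1FX alone made up 56.1% to 66.2% of the reads of the 9 genes in each library. Of the pair of genes that encode H3.3, H3F3B gave 96.7% to 98.3% of the reads in wild-type libraries and 98.1% to 99.4% in R749H libraries.

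**Figure D1:**
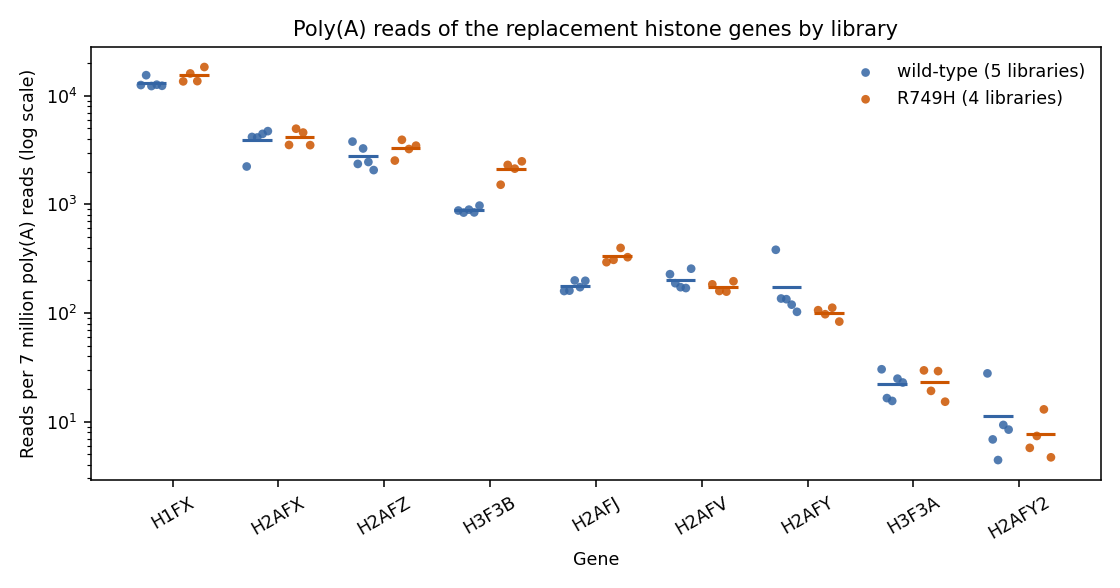
Normalised reads (log scale, scaled to 7000000 poly(A) reads per library) of each of the 9 genes in the 5 wild-type (blue) and 4 R749H (orange) libraries, with 1 point per library and a bar at the mean. H3F3B and H2AFJ are the genes whose R749H points all lie above all wild-type points.

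The comparison of expression asked which of these genes differed in level between cells with slow and wild-type Pol II. Each form was expressed in its own cell line, so the substitution cannot be told apart from other differences between the lines. H3F3B, H2AFJ, H2AFZ and H1FX rose in R749H cells, by 2.98-, 2.35-, 1.52- and 1.49-fold. H2AFX, H2AFV, H3F3A and H2AFY did not pass the test, and H2AFY2 was left out by the filter on low values. So 4 of the 8 genes tested were called higher and 0 lower (limma, adjusted p under 0.05), and over all 9494 genes tested 10.9% were called higher and 12.9% lower. Before adjustment 0 of the 8 were lower, compared with 20.6% of all genes tested, and edgeR and DESeq2 also called 4 higher and 0 lower. The median difference of the 8 genes was 0.51 on the log2 scale and that of all genes -0.07. These fold changes and the log2 differences of levels below use TMM factors unless stated, so they are not ratios of the normalised reads. With the authors' scaling to poly(A) reads alone, the median of all genes was -0.41, and 431 genes were called higher and 2628 lower in place of 1038 and 1227. A change of scaling moves all genes by nearly the same amount. Measured from the median of all genes, each gene therefore differed by nearly the same amount with either scaling. For example, H2AFX differed by 0.51 with both and H2AFZ by 0.67 and 0.66. This follows from the method and is no separate result. With the authors' scaling only H3F3B and H2AFJ passed.

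**Figure D2:**
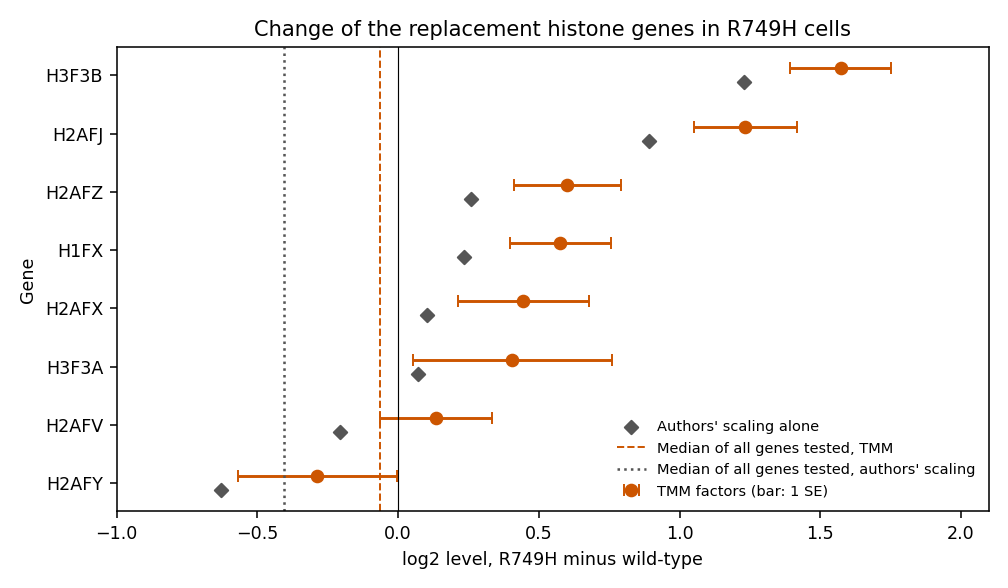
Difference in log2 level between R749H and wild-type libraries (x axis) for the 8 genes tested, with TMM factors (circles, bars of 1 SE) and with the authors' scaling alone (diamonds). The vertical lines give the median of all genes tested, -0.07 with TMM (dashed) and -0.41 with the authors' scaling (dotted), and 7 of the 8 circles lie to the right of the dashed line.

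H3F3B (CCDS11729.1, chr17:73772515-73781974, minus strand) is 1 of the genes for H3.3, the H3 variant that is placed in chromatin independently of DNA replication. It had 878, 840.5, 894, 844 and 974 normalised reads in wild-type replicates 1 to 5 and 1517, 2308, 2133 and 2491 in R749H replicates 1 to 4. All 4 R749H libraries lay above all 5 wild-type libraries, and the wild-type libraries were close together. The means were 886 ± 54.3 (SD, n = 5) for wild-type and 2112 ± 423 (SD, n = 4) for R749H. With TMM factors the difference was 1.57 on the log2 scale (SE 0.18, adjusted p = 2.87e-05), and with the authors' scaling alone it was 1.23. H3F3A (CCDS1550.1, chr1:226249552-226259720, plus strand), which encodes the same protein from another locus, had 15.5 to 30.4 normalised reads in wild-type and 15.3 to 29.7 in R749H libraries. Its 172 reads in all, 12 to 40 in each library, gave a difference of 0.41 (SE 0.35, adjusted p = 0.427), and the groups overlapped. Whether the changes of the pair differ from each other was not tested.

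H1FX (CCDS3057.1, chr3:129033614-129035129, minus strand) encodes H1X, a linker histone of most cell types. It had 12540, 15460, 12280, 12640 and 12350 normalised reads in wild-type and 13560, 16040, 13630 and 18380 in R749H libraries. Wild-type replicate 2 lay within the R749H range, so the groups overlapped. With TMM factors the difference was 0.58 (SE 0.18, adjusted p = 0.0279), smaller than that of H3F3B or H2AFJ. With the authors' scaling alone it was 0.23 (adjusted p = 0.221).

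H2AFJ (CCDS31752.1, chr12:14927339-14930936, plus strand) encodes H2A.J, a variant that differs from canonical H2A mainly in its C-terminus. It had 159, 161, 199.5, 173 and 198 normalised reads in wild-type and 294, 309, 398 and 326.5 in R749H libraries. The groups did not overlap, and the difference was 1.23 on the log2 scale (SE 0.18, adjusted p = 0.000291). With H3F3B it was 1 of 2 genes of the 8 whose R749H libraries all lay above the wild-type libraries, also with TMM factors. Over all genes tested this held for 9.72% with TMM factors, with 10.1% in the opposite order. These shares were not counted on the normalised reads printed here. In wild-type cells H2AFJ was level with H2AFV, and in R749H cells its lowest library, at 294, lay above the highest of H2AFV, at 196.

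H2AFZ and H2AFV encode the H2A.Z proteins, which are exchanged into nucleosomes around promoters. H2AFZ (CCDS3654.1, chr4:100869243-100871512, minus strand) had 3783, 2357, 3271, 2456 and 2069 normalised reads in wild-type and 2531, 3931, 3233 and 3472 in R749H libraries. The groups overlapped over most of their range, and the difference with TMM factors was 0.60 (SE 0.19, adjusted p = 0.0303). H2AFV (chr7:44866390-44887686, minus strand) had 228, 188, 173, 170 and 256 normalised reads in wild-type and 184, 160, 157 and 196 in R749H libraries. Of its R749H libraries 2 lay below the wild-type range and 2 within it, and with TMM factors the difference was 0.14 (SE 0.20, adjusted p = 0.654). Its sign depended on the scaling, since it was -0.21 with the authors' scaling alone (adjusted p = 0.446).

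H2AFX (CCDS8410.1, chr11:118964584-118966175, minus strand) encodes H2A.X, which is phosphorylated around DNA double-strand breaks. It had 2232, 4175, 4129, 4458 and 4723 normalised reads in wild-type and 3524, 4972, 4582 and 3511 in R749H libraries. Wild-type replicate 1 was low and the other 4 wild-type libraries spanned the middle of the R749H range. The difference was 0.45 (SE 0.23, adjusted p = 0.172), and without wild-type replicate 1 it was 0.21 (adjusted p = 0.326). H2AFY and H2AFY2 encode the macroH2A proteins, large H2A variants known for their presence on the inactive X chromosome and other silent chromatin. H2AFY (CCDS4183.1, chr5:134670071-134735604, minus strand) had 382 normalised reads in wild-type replicate 1, 103 to 136 in the other 4 wild-type libraries and 83.4 to 112 in the R749H libraries. The difference was -0.29 (SE 0.28, adjusted p = 0.489), and it was -0.0056 without wild-type replicate 1 (adjusted p = 0.989). H2AFY2 (CCDS7296.1, chr10:71812300-71872038, plus strand) was also highest in that library, with 27.8 normalised reads compared with 4.43 to 9.33 in the other wild-type and 4.70 to 13.0 in the R749H libraries. These are 4 to 15 reads in each library, and a difference in H2AFY2 was not detectable at this depth.

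For H3F3B and H2AFJ the call held in all 19 alternative analyses, with log2 differences from 1.23 to 1.74 for H3F3B and from 0.89 to 1.3 for H2AFJ. For H1FX it was lost in 7 of the 19 and for H2AFZ in 9, among them the authors' scaling, no filter on low values and no trend of the variance with the mean. Leaving out R749H replicate 2 or 4 or wild-type replicate 4 ended both calls and left 2 genes called. Leaving out wild-type replicate 3 ended that of H1FX (adjusted p = 0.0538), and leaving out wild-type replicate 2 or 5 ended that of H2AFZ (adjusted p = 0.0718 and 0.0546). Without R749H replicate 3, which stood apart, all 4 calls held. Other genes within 5 Mb of each of the 9 genes had median log2 differences between -0.16 and 0.16. Around H3F3B the median was 0.16, the highest of these, and 17 of 84 genes were called higher and 9 lower. Around H2AFJ it was -0.03, and 2 of 21 were called higher and 3 lower. Over all genes tested 10.9% were called higher and 12.9% lower. Whether a neighbourhood departs from these shares was not tested.

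The study took up how the upstream shift of polyadenylation under slow Pol II is laid out along the 3’ UTR, gradually or in steps, and the division of reads among the 3’ ends of each gene was compared for this. The position of the ends differed much among these genes. H2AFX and H2AFY ended almost wholly at 1 mapped position, with 88.7% and 89.0% of their reads there, more than in 88.0% and 88.3% of the tested genes. Genomic As just after an end cannot be told from the tail, so cleavage within them is counted at that end. There were 3 such As after the most used ends of H2AFX and H2AFZ, 0 after that of H2AFY and 4 after the H2AFV end at 265 nt. H3F3B was much more spread, with 28.03% at its most used end and an effective number of 6.14 ends (the inverse of the summed squared shares), above that of 91.2% of the genes. Close to it were H2AFV, with 28.02% and 4.70 ends, and H2AFY2, with 27.9% and 7.24 ends from only 65 reads. The medians over the tested genes were 56.9% and 2.47. H2AFZ had a pair at 371 and 376 nt with 72.2% and 26.1% of the reads, and H1FX 3 adjacent ends at 487, 488 and 489 nt.

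No end of the 9 genes passed a test of its share. In the test of single ends, 0 of 27 ends of 6 genes passed at the threshold of 0.05, and before adjustment 4 would have. Over all genes 0 of 26401 ends passed, a background of 0%, and 6.15% would have before adjustment. For clusters, which join ends up to 4 nt apart, 0 of 14 passed, and 1 would have before adjustment, where over all genes 0.0216% of 13895 passed and 7.77% would have. For the shift of a whole gene, the log2 odds of reads downstream of its median end, 0 of 6 genes passed, and 1 would have before adjustment, where 0.0896% of 6693 genes passed and 9.25% would have. For the shift within a cluster of at least 4 ends, only H2AFJ could be tested, with a difference of 0.12 (SE 0.21, adjusted p = 0.915), and 0% of 1073 clusters passed, while 4.85% would have before adjustment. The whole-gene difference was negative, that is, toward upstream ends in R749H cells, in 4 of the 6 genes. None of these passed, and that of H1FX was -0.0126 and changed sign in 4 of 16 alternatives. The median of all genes tested was -0.06, and the share of all genes with a negative difference was not counted. All these differences are in limma with Benjamini-Hochberg adjustment over every end, cluster or gene tested.

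H3F3B has ends spread over more than 2 kb of 3’ UTR, and reads were divided among 5 clusters, at 44, 344, 571, 1134 and 2159 nt. Its most proximal end is shown with the most distal, since they mark the span over which the mRNA can differ in its 3’ UTR.
H3F3B, 44 nt, chr17:73774632-73774661, minus strand: tatggcgttttgtAGTAAAttctgtaaaat
H3F3B, 344 nt, chr17:73774332-73774361, minus strand: tccttttgcAATAAAactggttatgacttg
H3F3B, 2159 nt, chr17:73772517-73772546, minus strand: ggatgagactaaAATAAAatttttgaagtt
Capitals mark the poly(A) signal, which was AATAAA at 344, 1134 and 2159 nt and the variant AGTAAA at 44 nt. The cluster at 44 nt held 11.2%, 20.4%, 20.5%, 20.5% and 18.5% of the H3F3B reads in wild-type replicates 1 to 5 and 23.7%, 28.75%, 19.2% and 29.4% in R749H replicates 1 to 4. Of the R749H libraries 3 lay above the wild-type range and replicate 3 lay within it. The log2 odds differed by 0.61 (SE 0.32, adjusted p = 0.671). The cluster at 1134 nt had the largest share in wild-type cells, 35.6% ± 6.59 (SD, n = 5), compared with 30.7% ± 4.08 (SD, n = 4) in R749H cells, a difference of -0.31 in log2 odds (SE 0.29, adjusted p = 0.803). The most distal cluster held 12.8% ± 5.29 and 9.55% ± 1.92, and over the 5 clusters the adjusted p lay between 0.671 and 0.954. Taken over the whole gene, the share of reads downstream of the division at 571 nt was 52.6% to 64.3% in wild-type and 41.5% to 56.8% in R749H libraries, a log2 difference of -0.53 (SE 0.24, adjusted p = 0.545).

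**Figure D3:**
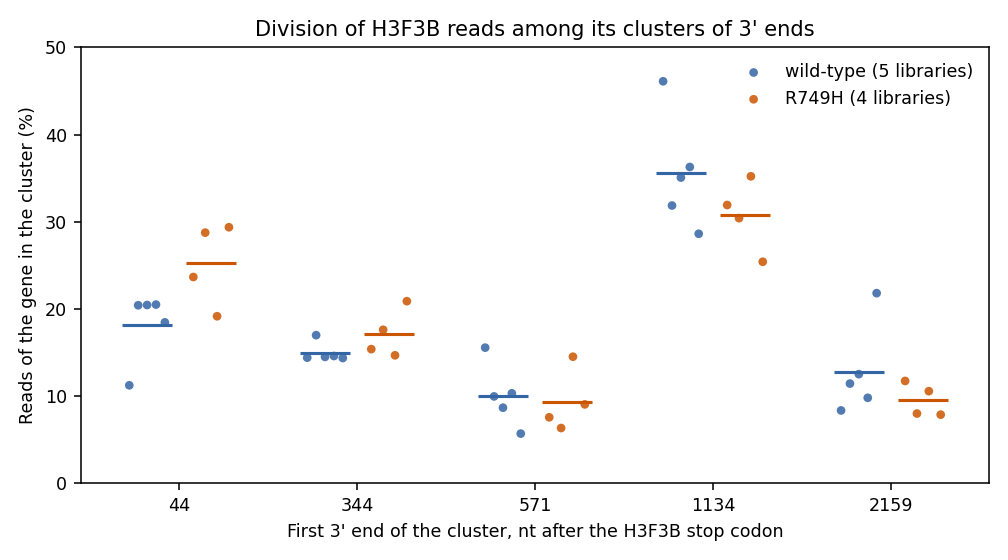
Percent of the H3F3B reads of a library (y axis) in each of its 5 clusters of 3’ ends, named by the distance of their first end from the stop codon in nt, in 5 wild-type (blue) and 4 R749H (orange) libraries. Bars give the mean, and the groups overlap in every cluster.

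H2AFX ends almost wholly at 2 adjacent mapped positions, 1085 and 1086 nt after the stop codon. Both lie in a run of Ts, and cleavage within the 3 genomic As after 1086 nt is counted at 1086 nt. The end at 1085 nt held 8.74% of the reads on average, below the 10% at which ends were named, and it was singled out after its values were seen. It held 7.60%, 6.88%, 7.19%, 7.09% and 6.90% of the H2AFX reads in the wild-type libraries and 8.88%, 11.0%, 11.5% and 10.7% in the R749H libraries. The groups did not overlap, and the wild-type libraries lay within 1 percentage point of each other. How many of all ends tested have groups that do not overlap was not counted, so no background stands beside this. Its log2 odds were 0.61 higher in R749H cells (SE 0.18), but over the 26401 ends tested this did not pass (adjusted p = 0.739). Counted as the shift of the whole gene, the share beyond 1085 nt was 91.8% to 92.7% in wild-type and 87.9% to 90.4% in R749H libraries, a difference of -0.60 (SE 0.14, adjusted p = 0.262). The difference was -0.55 without R749H replicate 3 (adjusted p = 0.320).

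**Figure D4:**
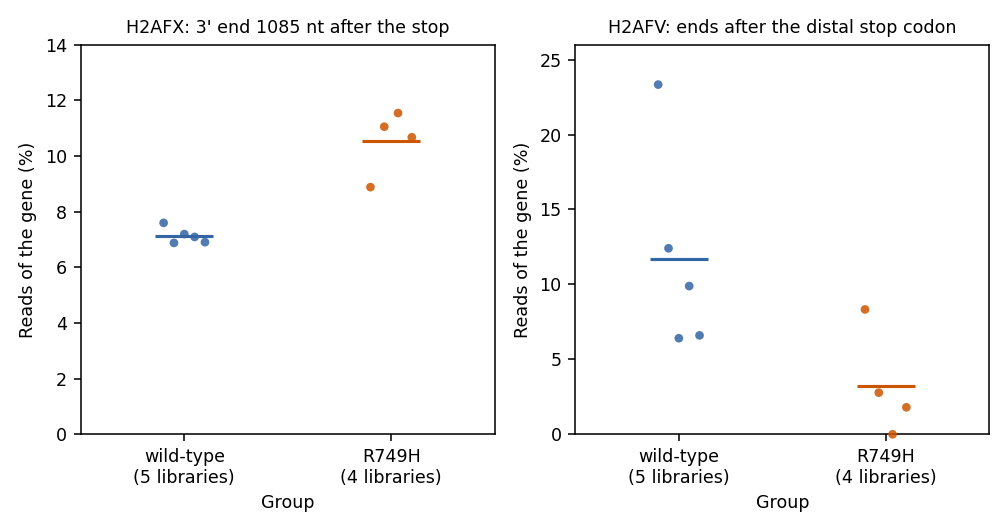
Percent of the reads of the gene (y axis) at the H2AFX end 1085 nt after the stop codon (left) and after the more distal of the H2AFV stop codons (right), in 5 wild-type and 4 R749H libraries, with bars at the mean. The H2AFX points of the groups do not overlap, and on the right 1 R749H library lies within the wild-type range and 3 lie below it. The share of all ends tested whose groups do not overlap was not counted.

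H2AFX is also the 1 gene of the 9 with a match to the histone stem-loop, the structure that ends replication histone mRNAs in place of a poly(A) tail. The match, searched in the RNA sense in the 300 nt after each stop codon, lies 50 to 65 nt after the H2AFX stop codon and is shown in capitals.
H2AFX stem-loop, chr11:118965601-118965630, minus strand: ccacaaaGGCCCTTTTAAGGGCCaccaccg
Of all 15558 coding entries 65, or 0.418%, had such a match, among them 51 of the 52 entries of clustered replication histones. Only 9 of the 31586 H2AFX reads ended no further than 20 nt beyond the stem-loop, including any that ended before it. These are poly(A) reads, so mRNA that ends at the stem-loop without a poly(A) tail is outside what was measured.

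H2AFV is the 1 gene of the 9 with 2 coding entries in the files, CCDS5496.1 with a stop codon at chr7:44874100 and CCDS5495.1 with one further downstream at chr7:44869743. Reads of the first ended mainly at 265, 271 and 2523 nt, and the hexamers before them were variants.
H2AFV, 265 nt, chr7:44873835-44873864, minus strand: caaaaatggaattGATAAAccattttttac
H2AFV, 2523 nt, chr7:44871577-44871606, minus strand: tatgttcTATAAActgacagatctagaggg
The capitals are GATAAA and TATAAA, and the first of these ends shares its hexamer with the end at 271 nt. The end at 265 nt held 12.2%, 15.3%, 23.7%, 19.4% and 20.3% of the H2AFV reads in wild-type and 25.5%, 21.3%, 34.0% and 28.7% in R749H libraries. R749H replicate 2 lay within the wild-type range and the other 3 lay above it, and the difference in log2 odds was 0.77 (SE 0.32, adjusted p = 0.608 as a cluster). The ends at 271 and 2523 nt had differences of -0.14 and 0.16 (adjusted p = 0.934 and 0.953 as single ends). The ends after the distal stop codon held 23.3%, 12.4%, 6.41%, 9.89% and 6.60% in wild-type and 8.33%, 2.78%, 0% and 1.80% in R749H libraries, that is 21, 17, 10, 27 and 14 reads and 16, 3, 0 and 3 reads. The library with 0 was R749H replicate 3, where 0 of 97 reads allows a share of up to 3.09% by counting error alone. That library has few ends with a single read. This share was looked at after its values were seen and was not tested.

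In H2AFZ the end at 371 nt held 70.0% to 76.5% and 66.3% to 73.5%, a difference of -0.12 (SE 0.24, adjusted p = 0.918), and the lowest value was that of R749H replicate 3. The most used end of H1FX, with 64776 reads, held 60.5% ± 2.65 (SD, n = 5) and 60.2% ± 0.92 (SD, n = 4), a difference of -0.021 (SE 0.18, adjusted p = 0.987). In H2AFJ the cluster at 163 to 166 nt held 91.6% ± 2.11 and 90.9% ± 3.71, a difference of -0.032 (SE 0.40, adjusted p = 0.985), and an end at 3140 nt, also singled out after its values were seen, held 1.89% and 3.29% on average. In each of these genes the groups overlapped at each end given.

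The genes that act on these histones were described by lists. For comparison, 10.9% of all 9494 genes tested were called higher and 12.9% lower with TMM factors. Of the 12 tested genes for H2A.Z exchange, which is carried out by the SRCAP and p400 complexes, 1 rose, 1 fell and 10 did not pass, with a median log2 difference of 0.06. RUVBL2, an ATPase of both complexes and the most abundant of the list, rose with TMM factors (0.69, SE 0.22, adjusted p = 0.0309). It had 1415 ± 438 normalised reads in wild-type and 1750 ± 311 in R749H libraries. With the authors' scaling its difference was 0.35 (adjusted p = 0.229). KAT5, the acetyltransferase of the p400 complex, fell with TMM factors (-1.67, SE 0.23). It had 431 ± 53.7 and 109 ± 33.7 normalised reads, and with the authors' scaling its difference was -2.01. Of the 9 tested H3.3 chaperones 2 rose, 1 fell and 6 did not pass, with a median of -0.09. ASF1B, which passes H3-H4 to other chaperones, rose by 1.28 (SE 0.20) and DAXX, the partner of ATRX, by 1.34 (SE 0.42, adjusted p = 0.0288), whereas UBN1 of the HIRA complex fell by 0.98 on the log2 scale (SE 0.31, adjusted p = 0.0329). DEK, the most abundant of that list, had a difference of -0.15 (adjusted p = 0.528). The calls of KAT5 and ASF1B held in all 19 alternatives, whereas those of RUVBL2, DAXX and UBN1 were lost in 8, 8 and 6 of them. Leaving out 1 library ended the call of RUVBL2 for wild-type replicates 2, 4 and 5 and R749H replicates 2 and 4, that of DAXX for wild-type replicates 1 and 3 and R749H replicates 2, 3 and 4, and that of UBN1 for wild-type replicates 1, 2 and 3 and R749H replicates 2 and 3. Without R749H replicate 3 the difference of UBN1 was -0.56 (adjusted p = 0.0996).

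Of the 12 general histone chaperones 0 rose and 1 fell, RBBP7, which binds H3-H4 in several complexes (-0.67, SE 0.17). The median of the list was -0.33, and CHAF1A of the CAF-1 complex, its most abundant gene, had a difference of -0.18 (adjusted p = 0.499). Of the 7 tested genes of H2A.X signalling 1 rose, the ubiquitin ligase RNF8 (0.54, SE 0.18, adjusted p = 0.0393), 1 fell, TP53BP1, the gene for 53BP1, which binds near breaks (-0.78, SE 0.26, adjusted p = 0.0389), and 5 did not pass, among them MDC1, the reader of phosphorylated H2A.X (-0.40, adjusted p = 0.211). The median of the list was -0.30. The calls of RNF8 and TP53BP1 were lost in 11 and 10 of the 19 alternatives, among them leaving out wild-type replicate 3, 4 or 5 or R749H replicate 2, 3 or 4, each of which ended both. Leaving out wild-type replicate 2 ended that of RNF8 and leaving out wild-type replicate 1 that of TP53BP1. Of 5 tested genes for the 3’ processing of replication histone mRNA, 1 fell, LSM10 of the U7 snRNP (-0.60, SE 0.17, adjusted p = 0.0177), and 0 rose. The calls of RBBP7 and LSM10 held in all 19 alternatives. With the authors' scaling alone, which lowered all genes together, 0 rose and 4 fell for H2A.Z exchange and 1 and 4 for H3.3 chaperones. For general chaperones the numbers were 0 and 8, for H2A.X signalling 0 and 3 and for histone mRNA processing 0 and 1. Over all 9494 genes tested, that scaling called 431 higher and 2628 lower, and TMM factors called 1038 and 1227 (10.9% and 12.9%).

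Reads of the clustered replication histones, which normally end without a poly(A) tail, were set beside those of the replacement histones. All 51 listed genes had reads, but only 8 passed the filter on low values. Of these 7 rose and 1 did not pass, with a median of 1.78, compared with 0.51 for the 8 tested replacement histone genes. With the authors' scaling 6 of 8 rose. Over all 9494 genes tested 10.9% were called higher with TMM factors. A gene of low level can pass the filter through the group in which it is high. The count of 7 and the median of 1.78 therefore follow in part from the filter. Without the filter, 10 of all 51 genes rose and the median was 0.64, compared with 0.42 for the 9 replacement histone genes and -0.15 for all genes. The share of all genes called higher in that setting is not given here, so this count has no background beside it. The most abundant, HIST3H2A, had 566 ± 160 normalised reads in wild-type and 1269 ± 107 in R749H libraries. Its difference was 1.55 with TMM factors (SE 0.20) and 1.21 with the authors' scaling. HIST1H1C, which encodes a replication-dependent linker histone, had 137 ± 43.8 and 382 ± 134 normalised reads. Its difference was 1.81 with TMM factors (SE 0.31) and 1.47 with the authors' scaling. The largest fitted differences were those of HIST1H2AL, HIST2H2BE and HIST1H3B, which had only 88, 101 and 151 reads in all. HIST1H2AL had 0 to 5.49 normalised reads in wild-type and 18.8 to 35.7 in R749H libraries, HIST2H2BE 0 to 4.98 and 18.8 to 38.9, and HIST1H3B 6.87 to 13.7 and 19.97 to 44.3. At these levels the filter was met through the R749H libraries, so no fold change is given for these genes. In wild-type cells HIST3H2A was below H3F3B and above H2AFV, with ranges that overlapped neither.

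**Figure D5:**
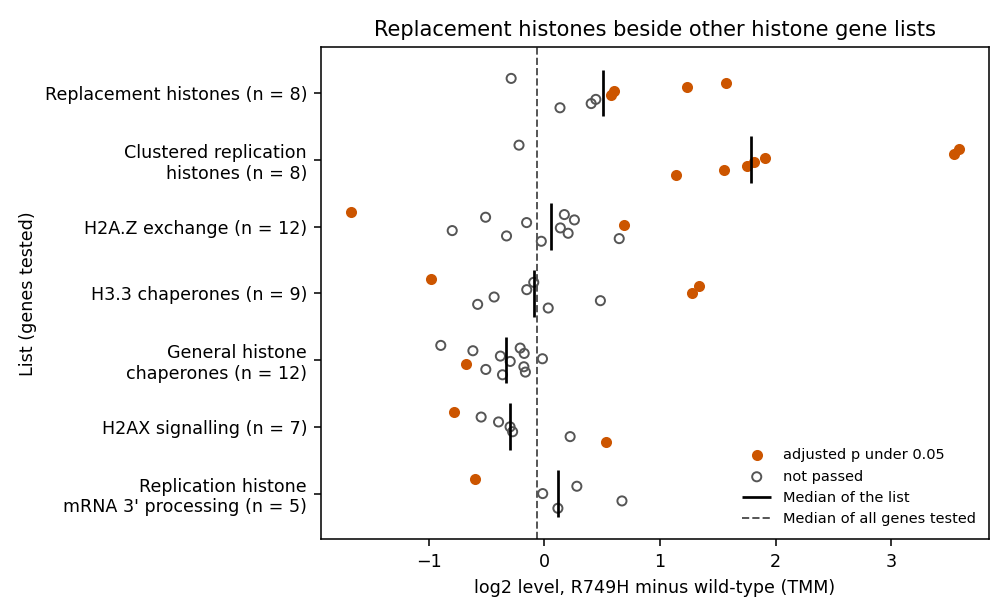
Difference in log2 level between R749H and wild-type libraries (x axis) of the tested genes of 7 lists, with filled circles for genes past an adjusted p of 0.05, open circles for the others and a vertical bar at the median of each list. The medians of the replacement histones and of the clustered replication histones, 0.51 and 1.78 (the latter over the 8 of 51 genes past the filter, and 0.64 over all 51 without it), lie to the right of the median of all genes, -0.07, and those of the other lists lie between -0.33 and 0.12.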

How the data were processed

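3’ READS libraries from cells with wild-type (5 libraries) or R749H (4 libraries) Rpb1 were used. The authors stripped random nt and leading Ts, mapped the reads to hg19 (with bowtie by the methods of the study, while the submitters' processing notes name Bowtie2 version 2.3.2), kept those with non-templated As, discarded mitochondrial reads and assigned each 3’ end to the closest CCDS stop codon up to 5 kb upstream. How reads that fit several places were treated is not given in the sources used here. The deposited signal values are reads per 3’ end, scaled by the authors to 7000000 poly(A) reads per replicate, and to 25000000 for pooled replicates. Division by the step worth 1 read in each library gave whole reads (within 0.0051) for at least 99.997% of values, and the pooled values were checked against their sums. The eNETseq libraries are not analysed here.

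The members and the gene lists were chosen with earlier results of these data known. A 10th gene of the list is not reported here. Reads were summed per gene name, and log2 CPM with TMM factors, filterByExpr and a prior count of 0.5 were tested with limma 3.58.1 (eBayes with trend), because the deposited values are scaled. Log2 odds of a 3’ end or cluster against the other reads of its gene, and of reads downstream of a median end, were tested with limma where libraries had 20 reads or more on average. Ends were kept if above 5% of the gene's maximal end in both pooled cell lines, or with at least 5 reads where that end had fewer than 100. Benjamini-Hochberg adjustment of p-values was made over all genes, ends or clusters, with 0.05 as threshold. Errors are SD of libraries or SE of the fit. Apart from the limit for 1 share of 0, intervals for counting error are not given, since PCR reads without molecular identifiers are not independent molecules.

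The 9 members were named, with their most used end, each cluster or end with at least 10% of the reads and any past a threshold. Of each list, the genes past the threshold were named, up to 4 by size, with the most abundant gene. Features outside this rule are marked. Stop codons of 15535 of 15558 CCDS entries were found at their position in GRCh37. Sequences and annotation were read from GRCh37 with GENCODE. The tests were tried on simulated data. Alternatives were RLE factors, the authors' scaling alone, other prior counts and filters, edgeR 4.0.16 and DESeq2 1.42.0 on the recovered reads, no trend, kept ends only, weights, other cluster definitions, a replicate block and each library left out in turn. R 4.3.3 and Python were used.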

Additional observations from a re-analysis of the deposited data

Results flagged for a closer look

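Among 42 sets of values (the level of each of the 9 genes, and the shares of their main clusters and of the H2AFX ends, in each group), 7 had a library far from the others of its group by Dixon's criterion, and chance flags about 1 in 20. Wild-type replicate 1 was the flagged library in 4 of them. It was lowest for H2AFX, at 2232 normalised reads compared with 4129 to 4723, and highest for H2AFY, at 382 compared with 103 to 136, and for H2AFY2, at 27.8 compared with 4.43 to 9.33. It also had the lowest share of H3F3B reads in the cluster at 44 nt, 11.2% compared with 18.5% to 20.5%. This library is also the shallowest, and the part of depth in these values was not tested. In wild-type replicate 2, H1FX was highest at 15460 normalised reads compared with 12280 to 12640, and the H3F3B cluster at 344 nt had 17.0% compared with 14.4% to 14.6%. In R749H replicate 3 the H2AFZ end at 371 nt held 66.3% compared with 72.5% to 73.5%, and that library has few ends with a single read.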

How the results depend on the processing

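The higher level of H3F3B and H2AFJ in R749H cells kept its direction and its call in all 19 alternatives. Of the 8 genes tested, 2 in place of 4 were called higher with the authors' scaling alone, without a filter on low values and without the mean-variance trend, and 2 to 4 were when a library was left out, with 0 called lower throughout. Over all genes the authors' scaling gave 431 higher and 2628 lower, and leaving out a library gave 694 to 1196 and 826 to 1472. The call of H1FX was lost with the authors' scaling (0.23, adjusted p = 0.221), that of H2AFZ also with a replicate block over replicates 1 to 4 (0.50, adjusted p = 0.0796), and H2AFV turned to -0.21 with the authors' scaling. The cause was not tested.

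Same-numbered libraries deviated together with correlations of -0.07, 0.05, 0.02 and -0.05, so the replicate numbers do not pair them, and the replicate block moved the numbers of genes called by less than 1.5 times. In the tests of shares the counts over all genes were 0 to 5 throughout. Genes called downstream, 2 in the analysis reported, were 1 with a prior count of 0.1 or division at the midpoint, 5 with a prior count of 2, 4 at a mean of at least 50 reads and 0 at 5 reads or with the replicate block. Genes called upstream, 4, were 2 with a prior count of 0.1 and 0 with division at the midpoint or the replicate block. Leaving out a library gave 0 to 2 and 0 to 3. Clusters with a higher share, 2, were 0 with the replicate block and 1 with ends above 10%, and those with a lower share, 1, were 0 with a prior count of 0.1, at 5 reads or with the replicate block, and both were 0 whenever a library was left out. Single ends, 0 in each direction, were 1 in each with a prior count of 2 or a mean of at least 50 reads. None of these was in the 9 genes.

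Differences near 0 changed sign. That of the H2AFJ cluster was 0.0308 with a prior count of 2, 0.0396 with weights and -0.411 to 0.178 with a library left out. With the replicate block, the H1FX shift was 0.0535 and its ends at 488 and 489 nt had -0.0156 and 0.0462. With a library left out, shifts ranged from -0.0528 to 0.0535 for H1FX, -0.0386 to 0.252 for H2AFJ and -0.0063 to 0.17 for H2AFZ, and that within the H2AFJ cluster from -0.0483 to 0.197. Shares ranged from -0.344 to 0.00178 for the H2AFV end at 271 nt, -0.0789 to 0.456 for that at 2523 nt, -0.377 to 0.0836 for the H3F3B cluster at 571 nt, -0.0607 to 0.0462 and -0.0156 to 0.0702 for the H1FX ends at 489 and 488 nt, and -0.0387 to 0.162 and -0.209 to 0.0817 for the H2AFJ ends at 164 and 166 nt. Assigning ends to 1 gene only was not run, since each end in the files already belongs to 1 entry. Depth limits H3F3A and H2AFY2 most.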
